A study of Mus musculus with 14 samples.

Results

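The growth hormone axis of the liver was followed here through 10 genes whose chromatin accessibility was compared between matrin-3 knockout and floxed livers: Ghr, Prlr, Stat5a, Stat5b, Igf1, Igfals, Socs2, Cish, Bcl6 and Cux2. An interval of open chromatin was assigned to a gene when its midpoint lay inside the RefSeq gene on mm10, or otherwise when that gene was the nearest protein-coding gene within 50000 bp. By this rule the 10 of 21887 protein-coding genes held 193 of the 88203 intervals of the chow table and 216 of the 105801 intervals of the high-fat diet (HFD) table. The assay was ATAC-seq, in which a transposase cuts and tags open DNA, on nuclei from 50 mg of frozen liver per mouse. All mice were female and carried floxed alleles of Matr3, which encodes the nuclear matrix protein matrin-3. The 4 groups were LKO mice on HFD (n = 4) and their floxed littermates on HFD (n = 4), and LKO mice on chow (n = 3) and floxed littermates on chow (n = 3). LKO denotes a liver-specific knockout made with an Albumin-Cre transgene, which acts in hepatocytes, so liver cells in which it is not active keep the gene. The floxed mice (flox) were not described as carrying Cre, so a Cre effect and the deletion cannot be told apart. Diets were given from 7 weeks of age for 16 weeks. The HFD held 60 kcal% fat, and a 12 h fast before collection was described for the HFD mice, while the sources used here do not say how the chow mice were fed before collection.

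Growth hormone is released by the pituitary and binds its receptor on hepatocytes, which activates the kinase JAK2 and, through it, the transcription factors STAT5A and STAT5B. Phosphorylated STAT5 enters the nucleus and binds sites of the form TTC, any 3 bases, GAA, at which it drives genes such as Igf1, whose hormone circulates bound to the acid-labile subunit encoded by Igfals, and the feedback inhibitors Socs2 and Cish. The pattern of hormone release differs between the sexes in rodents, and the repressors BCL6 (higher in male liver) and CUX2 (found mainly in female liver) take part in the sex-dependent genes. The prolactin receptor, Prlr, belongs to the same receptor family and is itself more highly expressed in female mouse liver.

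The promoters of these genes show where the letters of a STAT5 site stand relative to the open intervals described afterwards. RefSeq promoters (GRCm38.p6, the assembly also called mm10, 250 bases before to 50 after a start site) were present for 9 of the 10 genes, 18 in all. TTCNNNGAA, which reads the same on both strands, occurred in 6 of the 18 and in 4 of the 9 genes, against 8.30% of all 32851 promoters of the same length. The Bcl6 promoter below held 3 matches, as did 0.0335% of all promoters when 3 or more were counted, and the Cish promoter held 2 matches that start at the first and twelfth base of the transcript. The Prlr promoter precedes an internal start site, the Igfals promoter is the first of 3, and the Igf1 promoter, shown because Igf1 had the largest median difference on chow, held no match. A match is a description of letters and not a shown binding site. Each sequence is written 5′ to 3′ on the gene's strand with matches in capitals.
Cish chr9:107296409-107296708 (+ strand): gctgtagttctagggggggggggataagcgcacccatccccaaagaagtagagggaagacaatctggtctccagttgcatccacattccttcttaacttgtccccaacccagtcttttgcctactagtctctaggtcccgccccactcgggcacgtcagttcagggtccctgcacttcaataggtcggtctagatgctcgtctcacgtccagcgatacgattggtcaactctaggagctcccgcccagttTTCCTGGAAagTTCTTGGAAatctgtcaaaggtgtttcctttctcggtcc
Bcl6 chr16:23981234-23981533 (- strand): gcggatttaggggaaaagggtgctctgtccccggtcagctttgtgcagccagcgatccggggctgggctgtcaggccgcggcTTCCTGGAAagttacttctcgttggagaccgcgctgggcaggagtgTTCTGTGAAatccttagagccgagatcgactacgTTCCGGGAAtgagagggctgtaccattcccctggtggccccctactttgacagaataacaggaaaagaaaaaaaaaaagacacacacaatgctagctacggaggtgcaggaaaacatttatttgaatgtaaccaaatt
Igfals chr17:24877594-24877893 (+ strand): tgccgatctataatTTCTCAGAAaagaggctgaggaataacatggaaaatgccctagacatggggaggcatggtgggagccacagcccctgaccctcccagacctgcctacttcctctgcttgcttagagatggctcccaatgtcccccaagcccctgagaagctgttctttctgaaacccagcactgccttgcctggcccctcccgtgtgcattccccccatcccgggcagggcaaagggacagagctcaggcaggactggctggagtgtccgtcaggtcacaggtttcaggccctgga
Prlr chr15:10223656-10223955 (+ strand): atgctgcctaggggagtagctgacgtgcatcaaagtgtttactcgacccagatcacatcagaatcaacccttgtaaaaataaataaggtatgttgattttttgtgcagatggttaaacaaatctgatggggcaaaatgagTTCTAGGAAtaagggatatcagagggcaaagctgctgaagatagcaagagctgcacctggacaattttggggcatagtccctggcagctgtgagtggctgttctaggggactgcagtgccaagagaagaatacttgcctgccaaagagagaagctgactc
Igf1 chr10:87860861-87861160 (+ strand): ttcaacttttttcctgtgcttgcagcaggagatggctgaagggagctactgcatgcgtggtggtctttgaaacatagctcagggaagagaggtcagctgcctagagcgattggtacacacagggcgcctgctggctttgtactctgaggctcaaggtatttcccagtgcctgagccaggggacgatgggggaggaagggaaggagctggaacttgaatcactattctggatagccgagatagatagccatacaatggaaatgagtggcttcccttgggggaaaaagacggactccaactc

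Counted from the start site, the single match of the Igfals promoter began at -236 and that of the Prlr promoter at -110, and the Bcl6 matches began at -168, -122 and -88. The same TTC and GAA with 4 bases between them, which also read the same on both strands, were in 0 of the 18 promoters, against 6.95% of all promoters. ATCGAT, a CUX motif that is its own reverse complement, was in 1 of the 18, a Cux2 promoter, against 0.925% of all. ATTGAT, searched on both strands as the core of an HNF6 site, was in 0 of 18 against 7.54% of all.

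Library totals were 7586621 to 9455587 counts in HFD LKO and 7804243 to 10396084 in HFD flox, and 15531451 to 34981046 in chow LKO and 17138347 to 33217369 in chow flox. On chow both libraries numbered 2 were the shallow ones and had the lowest scores on the leading principal component, which held 42.3% of the variance. On HFD that component (25.8%) put flox 3 (-18.6) inside the range of LKO 2 to 4 (-69.8 to -11.5) and LKO 1 (5.03) between these and flox 1, 2 and 4 (38.8 to 71.4). Matr3 itself cannot check the labels, since no source used here says which exons were removed. Its summed accessibility was 72.1 to 80.8 counts-per-million units (CPM) in HFD LKO against 69.5 to 98.2 CPM in HFD flox, and 83.4 to 89.0 CPM in chow LKO against 89.5 to 92.6 CPM in chow flox. The 8 hepatocyte markers summed to 2629 to 3697 CPM in HFD LKO and 2665 to 5154 CPM in HFD flox, and to 4014 to 4895 CPM in chow LKO and 4499 to 5942 CPM in chow flox. Of their 308 HFD intervals, 36 were called lower in LKO, against 0.303% lower over all HFD intervals, and 1 higher. On chow 1 of their 294 intervals was called, higher in LKO, against 0.0227% called over all chow intervals. Both higher intervals were of Alb, starting at 90449866 on HFD and 90449902 on chow. Their log2 fold changes were 1.42 (edgeR adjusted p = 8.96e-08) and 1.29 (edgeR adjusted p = 0.0410). The part of the Albumin-Cre transgene in them was not tested. Of the 8 Kupffer cell and macrophage markers, 7 had an interval on HFD and 6 on chow, with sums of 146 to 161 CPM in HFD LKO against 118 to 159 CPM in HFD flox and of 64.5 to 94.3 CPM in chow LKO against 76.0 to 108 CPM in chow flox. The cholangiocyte markers Krt19 and Krt7 had no interval in either table. The part of other cell types in the results below was not tested. In bulk liver, fewer cells of a type and less open chromatin per cell cannot be told apart.

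Levels were set side by side as the mean CPM per interval, all intervals being of 1 width. Igfals had the highest level in all 4 groups: 12.6 ± 1.51 CPM in HFD LKO, 16.1 ± 2.47 CPM in HFD flox, 14.4 ± 3.44 CPM in chow LKO and 16.2 ± 2.31 CPM in chow flox (SD). Bcl6 was second in each group, at 10.8, 10.9, 12.2 and 14.1 CPM in the same order of groups. The lowest gene differed between the groups. It was Prlr in HFD LKO (6.31 ± 0.858 CPM), Igf1 in HFD flox (7.16 ± 1.49 CPM), Igf1 in chow LKO (5.48 ± 1.24 CPM) and Cux2 in chow flox (8.39 ± 1.501 CPM). Neighbours in these orders had overlapping ranges over libraries, with 2 exceptions: in HFD flox Igfals stood above Bcl6, and in chow LKO Stat5a stood above Stat5b.

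**Figure D1:**
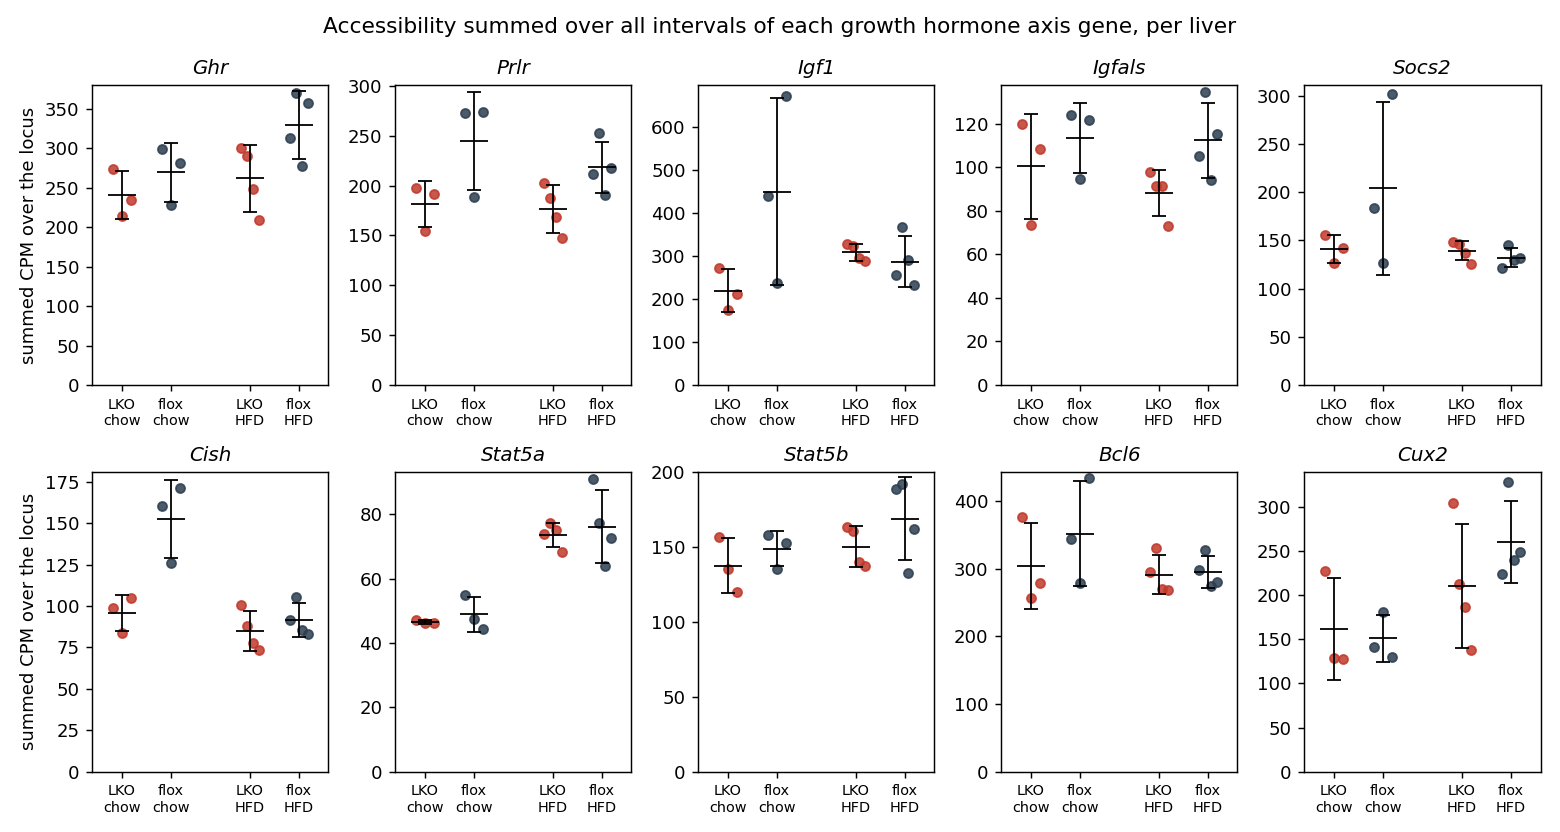
Summed CPM over all intervals of each gene (y axis) in every library, by genotype and diet (x axis), with LKO in red and flox in dark blue; black bars are mean ± SD. Chow Cish is the panel where LKO (83.9 to 105 CPM) and flox (126 to 171 CPM) do not overlap, and chow Igf1 flox spans 238 to 672 CPM.

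On chow the median interval log2 fold change (LKO over flox) was -1.15 for Igf1, -0.59 for Cish, -0.48 for Socs2 and -0.44 for Prlr, against -0.04 for Stat5a, -0.08 for Stat5b and 0.07 for Cux2. No member interval and no member's summed counts passed edgeR's quasi-likelihood test at an adjusted p under 0.05 (Benjamini-Hochberg over the whole table). Of the 193 intervals, 161 had a log2 fold change below 0, with a median of -0.36, or -0.21 without flox 3. Over all 88203 intervals 50.6% were below 0, and the median was -0.0032. Of the member intervals 82.9% came from calls in floxed livers, against 50.1% of all chow intervals. The part of this in the counts of lower intervals given here was not tested. The summed loci of the 8 hepatocyte markers were also below 0 on chow in 8 of 8 cases, with a median of -0.33, against 9 of 10 and a median of -0.19 for the members' loci, and their part in the members' values was not tested. At an unadjusted edgeR p under 0.05 stood 56 member intervals (29.0%), all lower in LKO, against 6.77% of all intervals in either direction and 3.77% lower. In 37 member intervals (19.2%) every LKO library lay below every flox library, against 6.04% of all intervals, and in 0 the reverse held, against 5.63%. The share called over the whole chow table was 0.0227% (20 intervals), so 0 called members is near that background. DESeq2 called 17 member intervals and limma-voom 12, all lower, of 544 (481 lower) and 677 (557 lower) over the whole table. Intervals of 1 gene share their libraries and neighbourhood and are not separate replicates.

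Of the receptors on chow, Prlr had 26 of 27 intervals lower in LKO, with a median log2 fold change of -0.44. Its summed accessibility was 197, 155 and 192 CPM in LKO libraries 1 to 3 against 272, 188 and 274 CPM in flox libraries 1 to 3. LKO 1 and 3 lay just above the lowest flox library, so the groups overlapped. The fold change of the sum was -0.43 ± 0.16 on the log2 scale (SE, edgeR adjusted p = 0.718). The Prlr interval with the smallest p, chr15:10236779-10237279, stood in the gene body, 13123 bp after the internal start site, with 5.19, 5.90 and 5.07 CPM in LKO against 10.1, 7.28 and 10.04 CPM in flox. Every LKO library was below every flox library there, at a log2 fold change of -0.78 ± 0.19 (SE, edgeR adjusted p = 0.336). Ghr, the growth hormone receptor, was closer to equality, with 22 of 27 intervals lower and a median of -0.15. Its sum was 274, 213 and 234 CPM in LKO against 299, 228 and 281 CPM in flox, overlapping, at -0.16 ± 0.13 (log2, SE, edgeR adjusted p = 0.734).

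The signal transducers of the pathway lay within the spread of the livers on chow. Stat5a summed to 47.3, 46.2 and 46.4 CPM in LKO against 54.9, 47.4 and 44.5 CPM in flox, and its log2 fold change was -0.07 ± 0.10 (SE, edgeR adjusted p = 0.825). Stat5b, which is the main hepatic STAT5 of the mouse, summed to 157, 136 and 120 CPM in LKO against 158, 136 and 153 CPM in flox, at -0.11 ± 0.11 (log2, SE, edgeR adjusted p = 0.766). None of their 19 intervals reached an unadjusted edgeR p under 0.05, and both groups overlapped in all of them.

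Igf1, the gene for the circulating growth factor, had all 40 chow intervals lower in LKO, 31 of them at an unadjusted edgeR p under 0.05 and 13 with no overlap between the groups. The median log2 fold change was -1.15. It was -1.42 over 31 intervals in the gene body, -0.51 over 7 outside the gene and -0.49 over 2 within 1000 bp of the start site. The sum over the locus was 273, 174 and 211 CPM in LKO libraries 1 to 3 against 438, 238 and 672 CPM in flox libraries 1 to 3. LKO 1 lay above flox 2 and flox 3 was far above all others, so the groups overlapped and the flox spread was wide. The fold change was -1.03 ± 0.32 on the log2 scale (SE, edgeR adjusted p = 0.718). Without flox 3 it was -0.62 with an edgeR adjusted p of 0.463, and all 40 intervals stayed below 0 with a median of -0.68. Without flox 2 it was -1.34 with an edgeR adjusted p of 0.0338, and 18 intervals were called, of 604 over the whole table. That fit called 22 summed loci over the whole table, against 0 with all libraries. With the column number as a replicate block, 3 Igf1 intervals were called, of 126 over the whole table. The edgeR adjusted p of the sum was then 0.0793.

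Single Igf1 intervals show how far this spread reached. The interval with the smallest p, chr10:87916321-87916821, lies in the gene body 55460 bp after the start site. It had 1.79, 1.69 and 1.74 CPM in LKO against 7.51, 3.64 and 5.85 CPM in flox, without overlap, at a log2 fold change of -1.71 ± 0.29 (SE, edgeR adjusted p = 0.115, or 0.0459 with the replicate block). The largest difference, at chr10:87865708-87866208 and 4847 bp after the start site, was -2.38 ± 0.53 (log2, SE, edgeR adjusted p = 0.270). There LKO had 3.08, 1.25 and 1.71 CPM and flox had 7.80, 3.81 and 20.3 CPM. The strongest Igf1 interval, chr10:87885267-87885767, had 17.1, 9.53 and 15.3 CPM in LKO against 24.1, 10.6 and 52.6 CPM in flox, and flox 2 lay among the LKO libraries. At the promoter printed above, chr10:87860743-87861243 had 16.4, 7.90 and 9.31 CPM in LKO against 14.8, 10.7 and 28.6 CPM in flox, overlapping, at -0.69 ± 0.35 (log2, SE, edgeR adjusted p = 0.753).

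Cish, a feedback inhibitor that STAT5 induces, had the most separated sums on chow. The locus summed to 98.6, 83.9 and 105 CPM in LKO against 160, 126 and 171 CPM in flox, and each LKO library was below each flox library, as in 5.94% of all summed loci. The log2 fold change was -0.67 ± 0.13 (SE), with an adjusted p of 0.639 by edgeR, 0.00483 by DESeq2, 0.0620 by limma-voom, 0.0223 with the replicate block and 0.0215 without flox 2. Over the 15932 summed loci edgeR called 0, with 6.56% at an unadjusted p under 0.05, while DESeq2 called 38 and limma-voom 1. The replicate block called 9 and the fit without flox 2 called 22. Leaving out single libraries moved the edgeR adjusted p of the Cish sum between 0.0215 and 0.999. All 12 Cish intervals were lower, 10 at an unadjusted edgeR p under 0.05 and 8 without overlap, and without flox 3 all 12 were still lower with a median of -0.60. The largest differences stood past the 3′ end of the gene. At chr9:107302565-107303065, 31 bp beyond the end, LKO had 2.14, 3.199 and 2.27 CPM against 7.92, 4.89 and 8.66 CPM in flox, a log2 fold change of -1.53 ± 0.27 (SE, edgeR adjusted p = 0.140). At chr9:107304987-107305487, 2453 bp beyond the end, LKO had 6.91, 6.08 and 7.16 CPM against 13.3, 14.2 and 12.1 CPM in flox, a log2 fold change of -0.97 ± 0.16 (SE, edgeR adjusted p = 0.109). Neither interval had overlapping groups, and the next coding gene on that side, Hemk1, begins 24298 bp from Cish. The interval over the promoter with 2 motif matches had 18.0, 13.3 and 21.6 CPM in LKO against 19.3, 18.9 and 24.5 CPM in flox, overlapping, at -0.24 ± 0.19 (log2, SE, edgeR adjusted p = 0.802).

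Socs2, the suppressor that limits growth hormone signalling in mice, had all 18 chow intervals lower in LKO (median log2 fold change -0.48), but this rested on 1 flox library. The locus summed to 155, 127 and 142 CPM in LKO against 184, 126 and 302 CPM in flox, at -0.53 ± 0.26 (log2, SE, edgeR adjusted p = 0.718). Flox 2 lay just below the lowest LKO library and flox 3 was far above all others. Without flox 3 the sum was at -0.13 (edgeR adjusted p = 0.709), and 11 of 18 intervals were lower with a median of -0.06. In the gene body chr10:95410410-95410910 had 1.72, 1.57 and 1.503 CPM in LKO against 5.27, 1.93 and 16.3 CPM in flox. The interval with the smallest p, chr10:95398751-95399251, had 3.86, 3.51 and 4.21 CPM in LKO against 6.35, 6.32 and 10.5 CPM in flox. That interval did not overlap between the groups, at a log2 fold change of -0.996 ± 0.24 (SE, edgeR adjusted p = 0.319). Igfals, whose product holds IGF1 in the circulation, had 6 of 7 intervals lower and a sum of 120, 73.5 and 108 CPM in LKO against 124, 94.8 and 122 CPM in flox. Its fold change was -0.17 ± 0.17 (log2, SE, edgeR adjusted p = 0.773), within the spread.

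**Figure D2:**
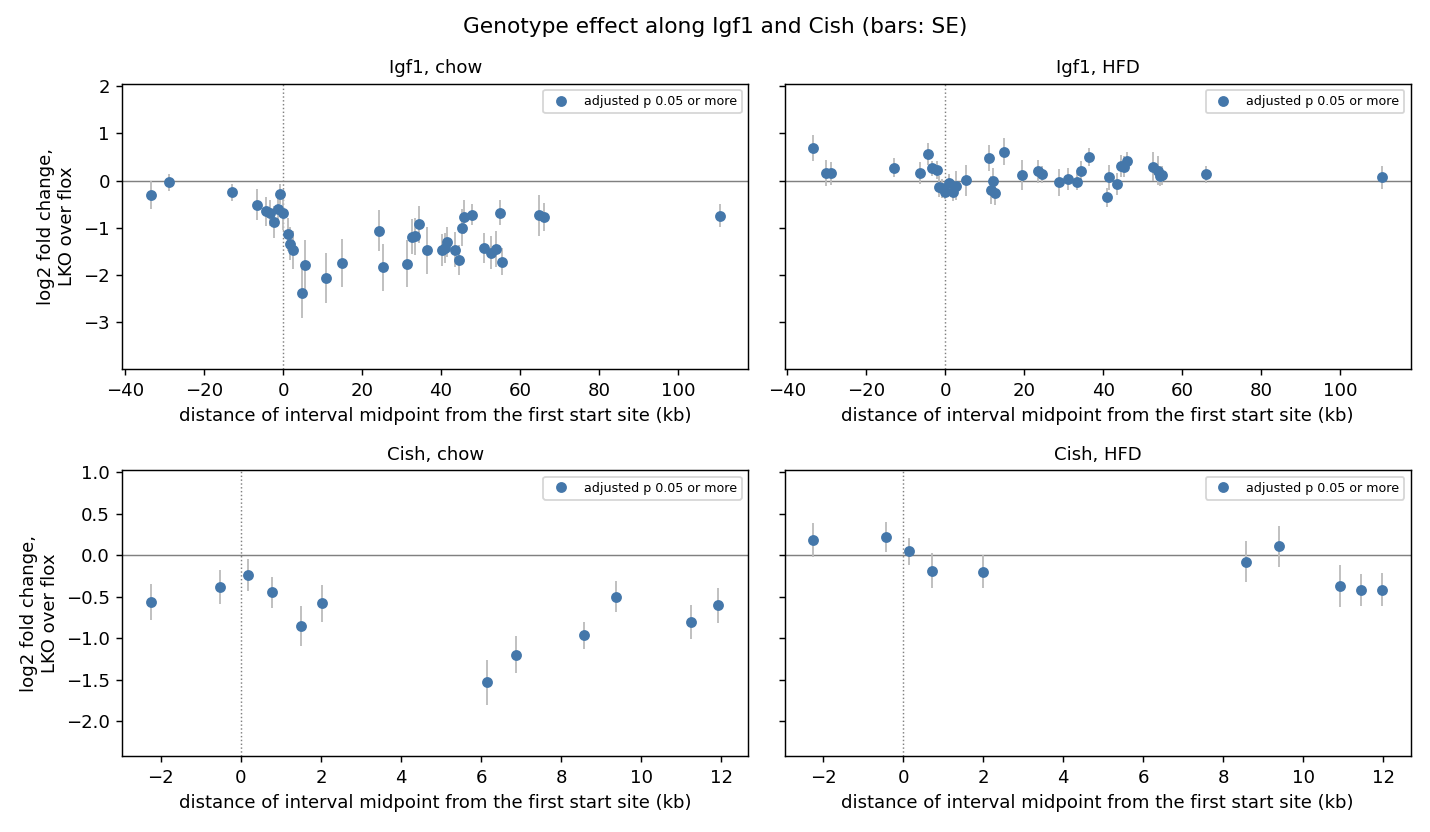
Log2 fold change LKO over flox (y axis, bars SE) of each interval against the distance of its midpoint from the first RefSeq start site in kb (x axis), for Igf1 (top) and Cish (bottom) on chow (left) and HFD (right). All 40 Igf1 and all 12 Cish intervals lie below 0 on chow, while 13 of 40 and 6 of 10 lie below 0 on HFD.

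For the repressors on chow the genotypes overlapped in every interval. Bcl6 had 19 of 25 intervals lower with a median log2 fold change of -0.21, but 12 of 25 with a median of 0.013 without flox 3. Its sum was 376, 256 and 280 CPM in LKO against 344, 279 and 434 CPM in flox. That is -0.21 ± 0.18 (log2, SE, edgeR adjusted p = 0.744), and LKO 1 lay above 2 of the 3 flox libraries. Over the promoter with 3 motif matches, chr16:23981204-23981704 had 25.6, 17.1 and 22.6 CPM in LKO against 25.9, 22.5 and 35.8 CPM in flox, at -0.36 ± 0.20 (log2, SE, edgeR adjusted p = 0.761). Cux2 had 13 of 18 intervals higher and a sum of 228, 129 and 128 CPM in LKO against 142, 181 and 130 CPM in flox, at 0.10 ± 0.22 (log2, SE, edgeR adjusted p = 0.889). Only LKO 1 was above the flox libraries, and leaving out single libraries moved the Cux2 sum between -0.23 and 0.25. Across all 10 genes, 145 of 193 intervals were lower without flox 3, and 154 without both libraries numbered 2. In the latter fit 10 were called (8 of Igf1, 1 of Socs2 and 1 of Cish), of 333 over the whole table.

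On HFD the median interval log2 fold change was -0.35 for Ghr, -0.31 for Prlr, -0.30 for Igfals and -0.32 for Cux2, against 0.13 for Igf1 and 0.06 for Socs2. In edgeR's test 2 of 216 member intervals (0.926%) were called, both lower in LKO, 1 in Prlr and 1 in Cux2. The share called over all 105801 intervals was 0.751%, of which 0.303% were lower, so the members' count is near the background. Of the 216 intervals 143 were below 0 with a median log2 fold change of -0.16, against 50.6% and a median of -0.0039 over all intervals. Calls in floxed livers gave 61.6% of the member intervals, against 50.5% of all HFD intervals. The part of this in the counts of lower intervals was not tested. Leaving out single libraries moved the number called between 0 (without LKO 3 or flox 4) and 6 (without LKO 1). Over the whole table those fits called 359 (without LKO 3), 326 (without flox 4) and 1126 (without LKO 1). An unadjusted edgeR p under 0.05 was reached by 34, of which 26 were lower, against 10.2% of all intervals in either direction, 4.8% lower and 5.41% higher. In 11 member intervals all LKO libraries lay below all flox libraries (5.09%, against 2.5% of all intervals), and in 2 they lay above (0.926%, against 2.8%). Groups without overlap made up 5.3% of all intervals. No summed locus of a member passed the test, with 3 of 10 (Ghr, Prlr and Igfals) at an unadjusted edgeR p under 0.05, 0 called by DESeq2 and 0 by limma-voom, against 0.344% called by edgeR and 10% at an unadjusted p under 0.05 over all 16280 loci. No member's sum lay wholly below flox, against 2.56% of all loci. Without LKO 1 and flox 3, a choice made after seeing the data, 158 member intervals were lower and 9 were called (4 of Cux2, 2 of Prlr, 2 of Igfals and 1 of Ghr). Calls over the whole table also rose in that fit, from 795 to 1883 (988 lower). The hepatocyte markers named above were also lower in sum in part of the LKO livers. Their summed loci were below 0 on HFD in 6 of 8 cases, with a median log2 fold change of -0.34. For the members' loci this was 8 of 10, with a median of -0.14. The part of these markers in the members' results was not tested.

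The called Prlr interval, chr15:10224659-10225159, fell in LKO livers. It lies in the gene body 1003 bp after the internal start site whose promoter was printed above. It had 4.72, 4.52, 4.18 and 4.67 CPM in LKO libraries 1 to 4 against 9.89, 8.48, 7.79 and 9.22 CPM in flox libraries 1 to 4. All 4 LKO livers lay in a narrow band under all 4 flox livers, at a log2 fold change of -0.96 ± 0.20 (SE, edgeR adjusted p = 0.0137). DESeq2 gave an adjusted p of 0.00520 and limma-voom 0.0211, while leaving out LKO 3 gave an edgeR adjusted p of 0.0554 and leaving out flox 4 gave 0.0621. The interval over that promoter itself, chr15:10223452-10223952, had 20.1, 19.3, 17.9 and 12.5 CPM in LKO against 18.0, 25.5, 17.5 and 19.9 CPM in flox, overlapping. Over the whole gene 25 of 28 intervals were lower with a median of -0.31. The sum was 203, 188, 169 and 147 CPM in LKO against 212, 253, 191 and 217 CPM in flox, a log2 fold change of -0.30 ± 0.10 (SE, edgeR adjusted p = 0.254). Here LKO 1 lay above flox 3, the pair of libraries noted on the principal component, and the edgeR adjusted p without both was 0.0267. That fit, chosen after the data were seen, called 321 loci over the whole table, against 56 with all libraries. Leaving out single libraries moved the edgeR adjusted p of the Prlr sum between 0.0744 and 0.591.

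Ghr had 31 of 34 intervals lower on HFD, 10 at an unadjusted edgeR p under 0.05 and 4 without overlap, with a median log2 fold change of -0.35. Its sum was 300, 291, 248 and 208 CPM in LKO against 313, 370, 277 and 357 CPM in flox, overlapping through LKO 1, LKO 2 and flox 3. The fold change was -0.33 ± 0.11 (log2, SE, edgeR adjusted p = 0.276, or 0.0312 without LKO 1 and flox 3). The latter fit called 321 loci over the whole table, against 56 with all libraries. Leaving out single libraries moved the edgeR adjusted p of the Ghr sum between 0.0704 and 0.602. The Ghr interval with the smallest p, chr15:3441477-3441977 in the gene body, had 8.26, 6.18, 6.01 and 5.81 CPM in LKO against 9.78, 10.4, 10.2 and 10.1 CPM in flox. The groups were apart there, at -0.62 ± 0.19 (log2, SE, edgeR adjusted p = 0.136). At the Ghr promoter chr15:3583266-3583766 had 15.9, 20.3, 25.2 and 19.2 CPM in LKO against 26.5, 23.5, 22.2 and 28.3 CPM in flox, with only LKO 3 inside the flox range, at -0.32 ± 0.14 (log2, SE, edgeR adjusted p = 0.384).

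The called Cux2 interval, chr5:121917411-121917911, also fell in LKO livers. It stands deep in the gene body, 130164 bp from the nearest start site, with 7.83, 3.86, 2.61 and 3.28 CPM in LKO against 8.54, 12.4, 8.67 and 10.4 CPM in flox. LKO 1 came close to the lowest flox library and the other 3 were far below, at a log2 fold change of -1.17 ± 0.25 (SE, edgeR adjusted p = 0.0164). The call was lost without LKO 2 (edgeR adjusted p = 0.0587), LKO 3 (0.0908), LKO 4 (0.0974), flox 2 (0.0941) or flox 4 (0.0689), so it rested on most of the libraries. Over the gene 26 of 31 intervals were lower with a median of -0.32, split between 24 of 25 in the gene body (median -0.32) and 2 of 5 outside it (median 0.06). The sum was 304, 213, 187 and 138 CPM in LKO against 224, 329, 240 and 249 CPM in flox, at -0.31 ± 0.17 (log2, SE, edgeR adjusted p = 0.578). LKO 1 exceeded 3 of the 4 flox livers.

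**Figure D3:**
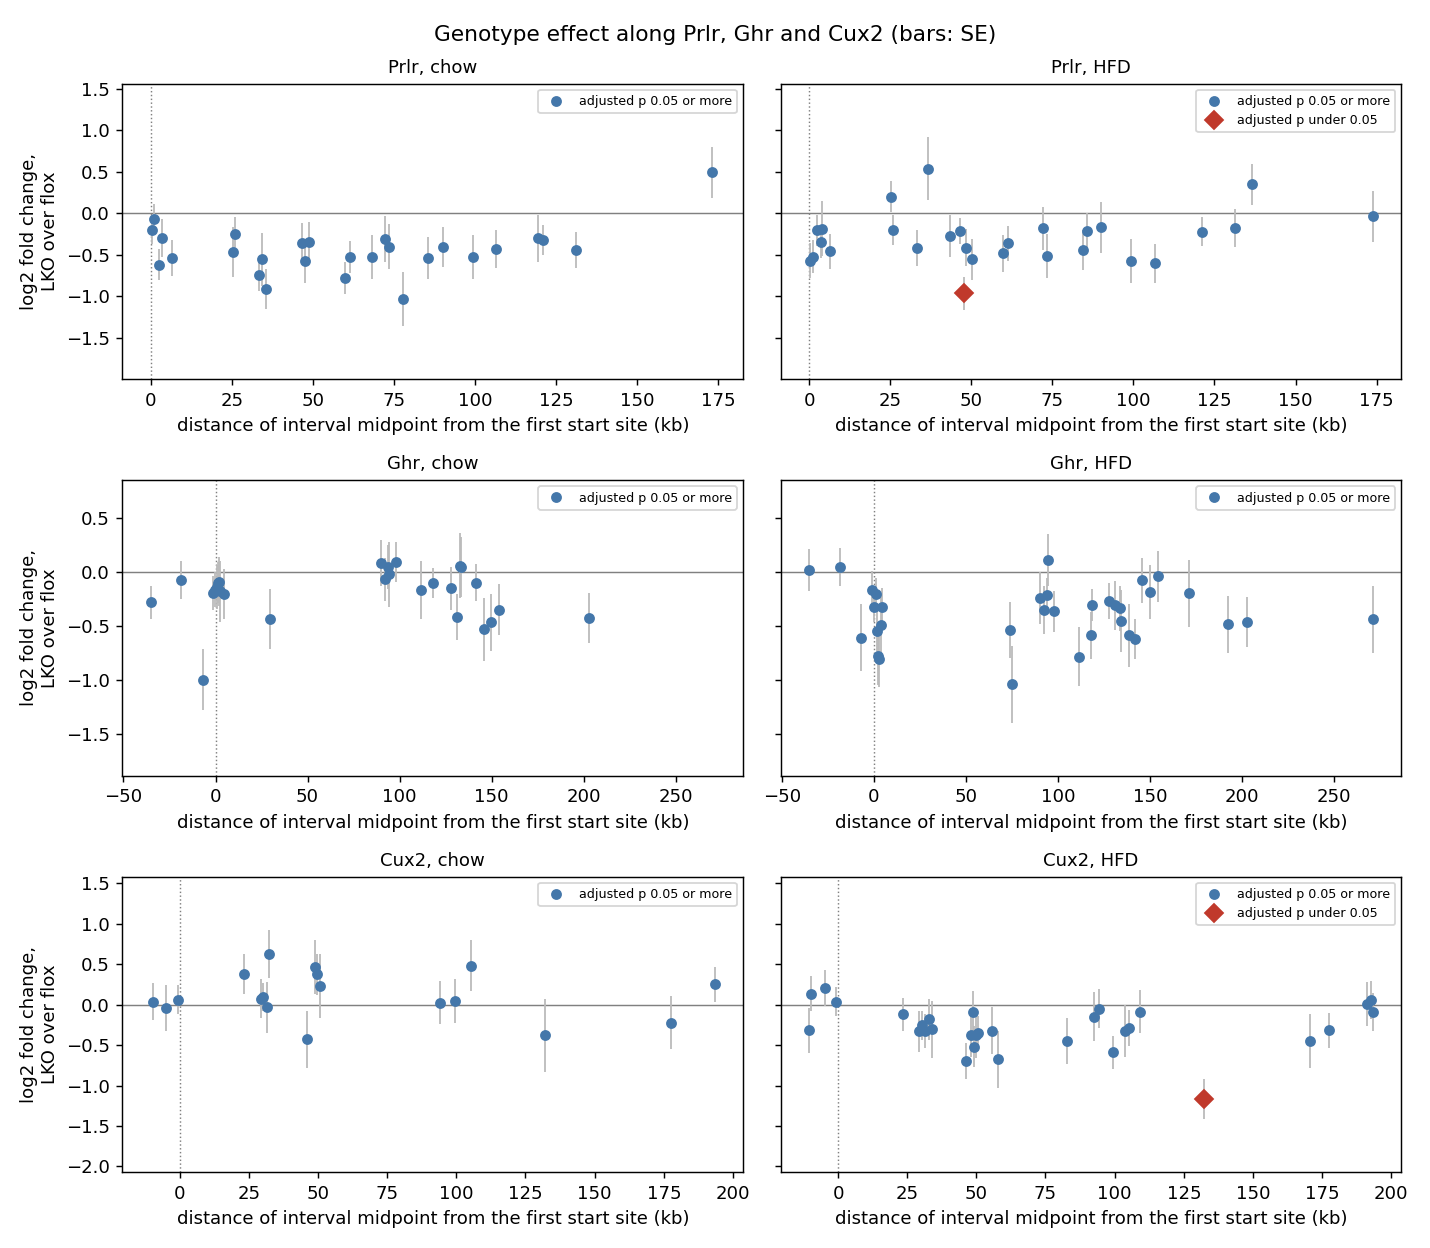
Log2 fold change LKO over flox (y axis, bars SE) of each interval against the distance of its midpoint from the first RefSeq start site in kb (x axis), for Prlr, Ghr and Cux2 on chow (left) and HFD (right). Red diamonds mark the 2 intervals with an adjusted p under 0.05, in Prlr (-0.96) and Cux2 (-1.17) on HFD; on HFD 31 of 34 Ghr intervals lie below 0.

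Igfals had all 7 HFD intervals lower in LKO, with a median log2 fold change of -0.30. The interval upstream of its first start site, chr17:24877260-24877760, which covers the motif match of the promoter printed above, had 22.9, 21.0, 18.9 and 17.0 CPM in LKO against 23.4, 35.5, 24.5 and 30.1 CPM in flox. The groups were apart by a small margin between LKO 1 and flox 1, at -0.51 ± 0.14 (log2, SE, edgeR adjusted p = 0.0804). The sum was 97.7, 91.5, 91.2 and 73.2 CPM in LKO against 105, 135, 94.1 and 116 CPM in flox, with LKO 1 above flox 3, at -0.35 ± 0.10 (log2, SE, edgeR adjusted p = 0.188). Without flox 3 the edgeR adjusted p of this sum was 0.0362, in a fit that called 192 loci over the whole table, against 56 with all libraries. Leaving out single libraries moved the edgeR adjusted p of the sum between 0.0362 and 0.493.

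Igf1 had 27 of 40 intervals above 0 on HFD with a median log2 fold change of 0.13. The sum was 328, 323, 295 and 289 CPM in LKO against 256, 368, 290 and 231 CPM in flox, at 0.11 ± 0.11 (SE, edgeR adjusted p = 0.825), and flox 2 lay above all LKO livers. All 5 Igf1 intervals at an unadjusted edgeR p under 0.05 were higher in LKO. They were 12.5% of its intervals, against 10.2% of all HFD intervals in either direction and 5.41% higher. The groups overlapped in every Igf1 interval. The smallest p was at chr10:87897324-87897824, with 13.2, 11.1, 16.6 and 17.2 CPM in LKO against 9.89, 13.7, 10.8 and 6.45 CPM in flox, overlapping, at 0.50 ± 0.19 (log2, SE, edgeR adjusted p = 0.309). At the promoter, chr10:87860745-87861245 had 12.4, 14.3, 12.7 and 12.5 CPM in LKO against 15.2, 18.5, 14.8 and 12.3 CPM in flox, at -0.23 ± 0.16 (log2, SE, edgeR adjusted p = 0.675).

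No interval or sum of the feedback genes passed the test on HFD. Socs2 had 10 of 15 intervals higher, and its sum was 148, 146, 137 and 126 CPM in LKO against 122, 145, 130 and 132 CPM in flox, at 0.08 ± 0.08 (log2, SE, edgeR adjusted p = 0.815). Its interval chr10:95415243-95415743 was the one with the smallest p, at 11.6, 12.5, 11.8 and 11.9 CPM in LKO against 5.51, 10.1, 8.17 and 7.95 CPM in flox, all LKO above all flox. The log2 fold change there was 0.58 ± 0.19 (SE, edgeR adjusted p = 0.171). Cish had 6 of 10 intervals lower and summed to 101, 88.1, 78.0 and 73.2 CPM in LKO against 91.8, 106, 85.5 and 83.1 CPM in flox, at -0.11 ± 0.10 (log2, SE, edgeR adjusted p = 0.788). The interval past the Cish gene at chr9:107307853-107308353 was at -0.42 ± 0.19 (log2, SE, edgeR adjusted p = 0.440), with overlapping groups.

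The transducers and Bcl6 were within the spread on HFD. Stat5b had 13 of 17 intervals lower and summed to 163, 161, 140 and 137 CPM in LKO against 189, 192, 132 and 162 CPM in flox, at -0.17 ± 0.10 (log2, SE, edgeR adjusted p = 0.641). Stat5a was at -0.05 ± 0.09 (edgeR adjusted p = 0.905) and Bcl6 at -0.02 ± 0.09 (edgeR adjusted p = 0.967) on the same scale. Bcl6 intervals split into 13 lower and 14 higher, and none of them or of the 7 Stat5a intervals reached an unadjusted edgeR p under 0.05.

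**Figure D4:**
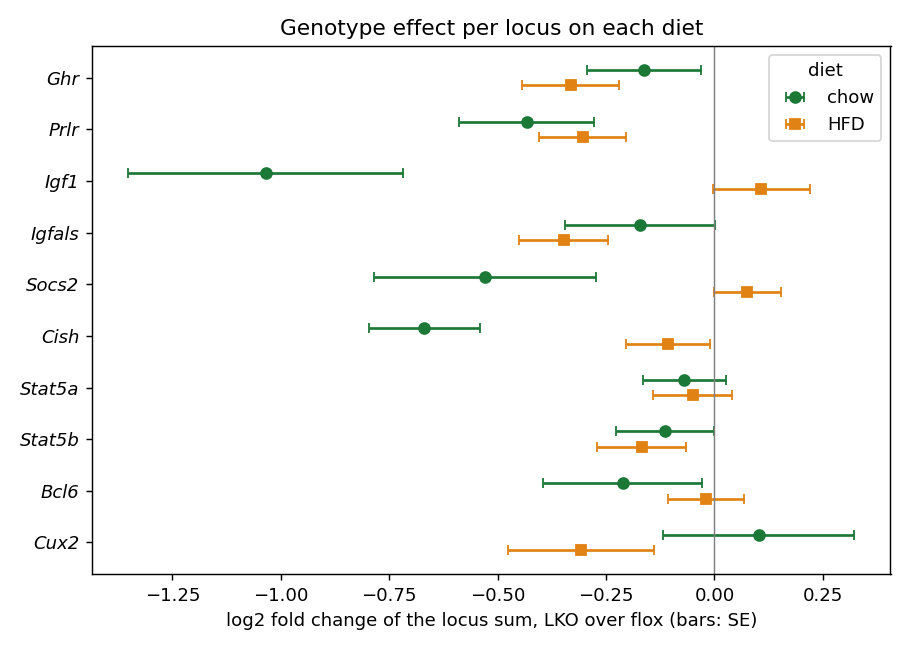
Log2 fold change LKO over flox of the summed counts of each gene (x axis, points with SE bars) on chow (green circles) and HFD (orange squares). Igf1 stands at -1.03 on chow and 0.11 on HFD, Cish at -0.67 and -0.11, Ghr at -0.16 and -0.33, Cux2 at 0.10 and -0.31.

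Whether the genotype effect differed between diets was tested on 73945 intervals that overlapped by at least 50% in both tables, as the HFD effect minus the chow effect in 1 edgeR fit. Chow and HFD libraries were processed in separate tables, so diet and processing set cannot be told apart in their levels. Each effect is taken within a table. A fast was described for the HFD mice alone, and the chow libraries were deeper. Diet, fasting and processing set therefore cannot be told apart in the difference of effects either. Of 153 matched member intervals 100 had a difference above 0 with a median of 0.17, against 37865 (51.2%) of all 73945 intervals and a median of 0.01. In edgeR 1 member interval was called, against 0.183% of all. An unadjusted edgeR p under 0.05 was reached by 29 of the 153. Over all matched intervals 7.44% reached it, and 3.97% did so with a difference above 0. Of the 29, 23 were of Igf1, 3 of Socs2 and 3 of Cish.

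All 29 matched Igf1 intervals had a difference above 0, with a median of 1.15 on the log2 scale and 23 at an unadjusted edgeR p under 0.05. The called one, chr10:87905314-87905814 on chow, had 2.73, 1.76 and 2.21 CPM in chow LKO against 8.997, 3.98 and 8.60 CPM in chow flox. Its effect was 0.31 on HFD and -1.68 on chow, a difference of 2.01 ± 0.39 (log2, SE, edgeR adjusted p = 0.0175). No member interval was called without chow flox 3, HFD LKO 4, HFD flox 2 or HFD flox 4, and 17 were called without chow flox 2. Summed over the matched intervals, the Igf1 effect was 0.14 ± 0.21 on HFD and -0.95 ± 0.24 on chow, a difference of 1.09 ± 0.31 (log2, SE, edgeR adjusted p = 0.360). Of all summed matched loci 0.0328% were called and 6.74% had an unadjusted edgeR p under 0.05. That difference was 0.70 without chow flox 3 (edgeR adjusted p = 0.429) and 1.40 without chow flox 2 (edgeR adjusted p = 0.00476).

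The other genes showed smaller differences between the diets. Cish had 9 of 9 matched intervals above 0, and its summed effects of -0.09 on HFD and -0.58 on chow differed by 0.49 ± 0.17 (log2, SE, edgeR adjusted p = 0.515). Socs2 had 11 of 12 above 0 and a summed difference of 0.47 ± 0.22 (log2, SE, edgeR adjusted p = 0.736). Cux2 had 2 of 17 above 0, with summed effects of -0.31 on HFD and 0.07 on chow and a difference of -0.39 ± 0.30 (log2, SE, edgeR adjusted p = 0.845). For the receptors the effects had the same sign on both diets. The summed difference was 0.10 ± 0.17 for Prlr (edgeR adjusted p = 0.941) and -0.10 ± 0.18 for Ghr (edgeR adjusted p = 0.942) on the log2 scale, so the larger Ghr effect on HFD is not shown to differ from that on chow.

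**Figure D5:**
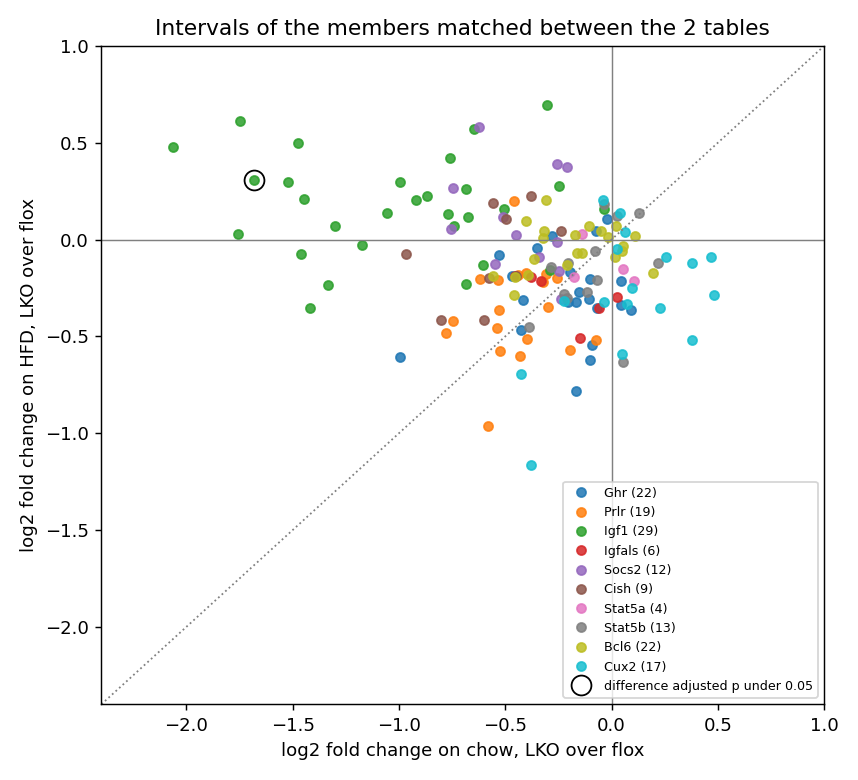
Log2 fold change LKO over flox on HFD (y axis) against that on chow (x axis) for the 153 matched intervals, coloured by gene with the number of intervals in brackets; the dotted line marks equal effects. The 29 Igf1 intervals lie above the line, and the circled one differed between the diets with an edgeR adjusted p of 0.0175.

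The interval names in the deposited tables record whether a call came from knockout or floxed livers. Of the 40 Igf1 intervals on chow, 39 came from calls in floxed livers, while 23 of 40 on HFD came from calls in knockout livers. Socs2 had 18 of 18 from floxed livers on chow and 8 of 15 from knockout livers on HFD, and Ghr had 31 of 34 from floxed livers on HFD. Over all members 61.6% on HFD and 82.9% on chow came from floxed livers, against 50.5% and 50.1% of all intervals. Because each interval set depends on where signal was high, its part in the counts of lower intervals was not tested.

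Of 20 listed signalling genes, which include the kinase Jak2, the inhibitor Socs3, phosphatases such as Ptpn1 and the IGF binding proteins, 0 of 261 intervals were called on HFD and 0 of 197 on chow, against 0.751% of all HFD intervals and 0.0227% of all chow intervals, so both counts are near the background. At an interval of Igfbp2, which encodes an IGF binding protein, the HFD log2 fold change was 0.55 (edgeR adjusted p = 0.0681), the smallest of the list. Of 17 female-biased genes that depend on growth hormone, such as Cyp2b13 and Sult2a1, 6 had lower intervals on HFD (43 of 219 intervals, against 0.303% lower over all intervals), and 26 of the 43 were of Cyp2b13 alone. On chow 0 of 186 were called, near the background of 0.0227%. Of 17 male-biased genes with 227 intervals on HFD, Egfr had 73 of its 136 higher and Mup20 had 1 lower. Over all HFD intervals 0.751% were called in either direction, and 0.303% were lower. On chow 0 of 258 were called, near the background of 0.0227%.

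Over the libraries of a table, members were compared by the correlation of their log2 summed CPM, which also carries what libraries share in depth and composition. On HFD (8 libraries) Ghr followed Prlr (Pearson r = 0.974) and Igfals (r = 0.954) closely and did not follow Igf1 (r = 0.0233), while Igf1 was nearest to Socs2 (r = 0.748). On chow (6 libraries) Igf1 followed Socs2 (r = 0.951), Prlr (r = 0.948) and Cish (r = 0.907). Among other genes with at least 3 intervals, those most like Igf1 were Ppdpf, Tsen34 and Smyd1 on HFD (r = 0.932, 0.921 and 0.915) and Fga, Selenbp2 (one of the listed male-biased genes) and Adck5 on chow (r = 0.994, 0.992 and 0.992). Those most like Ghr were Mup7, B2m and Dclre1a on HFD (r = 0.985, 0.983 and 0.978) and Gm52006, Rapgef4 and Tbc1d13 on chow (r = 0.993, 0.992 and 0.991). Those most like Socs2 were Lims2, Abcg8 and Csrp3 on HFD (r = 0.948, 0.941 and 0.939) and Casp14, Rundc3a and Thrap3 on chow (r = 0.996, 0.990 and 0.986).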

How the data were processed

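ATAC-seq of 14 livers was analysed from 1 table per diet holding counts of reads per interval, which the authors deposited; the counts are whole numbers and not normalised. The submitters' processing notes name mm10 and these tools, without roles: MACS2 2.2.7.1, HOMER 4.11, Bowtie2 2.4.2, bedtools, ChIPseeker, DESeq2 and Trim Galore 0.6.7. No source used here says how reads were shifted for the transposase or how duplicates were treated. HFD columns match single samples by label. Chow columns name the genotype only, so their numbers are column numbers.

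Genes came from RefSeq on GRCm38.p6. Tests used edgeR 4.0.16 (TMM, filterByExpr, which removed 0 intervals, quasi-likelihood) on all intervals of a table and on counts summed per gene, with Benjamini-Hochberg adjustment over the table and a threshold of 0.05. Common variation (BCV) was 0.170 on HFD and 0.187 on chow. Alternatives used DESeq2 1.42.0, limma 3.58.1 (voom with quality weights), RLE factors, other filters and distances, and libraries left out. In R 4.3.3 the edgeR steps were tested on simulated data. Pairs of libraries within a group differed by at least 2.49 (HFD) and 7.41 (chow) times the sampling noise (chi-square over its degrees of freedom), so each was counted once. Deviations of same-numbered chow libraries had correlations of 0.192, 0.534 and 0.191, and those of unlike-numbered ones ran from -0.381 to 0.279. LKO 1 with flox 3 (0.279) was above LKO 1 with flox 1 (0.192). Only the shallow libraries numbered 2 (0.534) stood apart, so these values do not establish pairing by number. Nothing in the labels ties the numbers to animals or days. The replicate block is given beside the chow results it changes as an alternative only.

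Members and gene lists were chosen with earlier results of these data known. Intervals described singly are, per gene and table, the one with the highest level, the one at the gene start, the one with the smallest p and every called one, of which those that bear on the results are given; the chow Bcl6 interval at 23981204, which covers the printed promoter, the chow Igf1 intervals at 87865708 and 87905314, the chow Cish interval at 107302565 and the chow Socs2 interval at 95410410 were chosen after their values were seen.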

Additional observations from a re-analysis of the deposited data

Results flagged for a closer look

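In 70 groups of 4 HFD livers, over the members' summed loci and the intervals described singly, 1 library stood far from the other 3 in 3 groups. Chance gives about 1 in 20 such groups. At Ghr chr15:3441477-3441977 LKO 1 had 8.26 CPM, against 5.81 to 6.18 CPM in the other LKO livers. At Igf1 chr10:87885277-87885777 LKO 1 had 23.8 CPM, against 15.3 to 16.5 CPM in the others. At the Igf1 promoter interval chr10:87860745-87861245 LKO 2 had 14.3 CPM, against 12.4 to 12.7 CPM in the others. The genotype effect at the Igf1 interval chr10:87905314-87905814 differed between the diets, by 2.01 on the log2 scale (HFD minus chow, edgeR adjusted p = 0.0175).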

How the results depend on the processing

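Normalisation with RLE factors and the filters on low counts moved no member call. On chow the counts of called intervals depended on the tool and the libraries. DESeq2 called 544 intervals (481 lower) with 17 of members, limma-voom 677 (557) with 12, the replicate block 126 (118) with 3, and the fit without both libraries numbered 2 called 333 (321) with 10. Leaving out 1 library gave 0 to 604 (0 to 588 lower), with 0 to 25 of members. Of chow summed loci DESeq2 called 38 (26 lower, 1 member), limma-voom 1, the replicate block 9 (4 lower, 1 member) and the fit without both numbered 2 called 7 (7 lower), with 0 to 22 (0 to 21 lower) and 0 to 2 members when 1 library was left out. On HFD the correlations of same-numbered deviations were -0.012 to 0.178. LKO 2 and LKO 3 were nearest to the flox library of their own number, but LKO 1 was nearest to flox 2 and LKO 4 to flox 3. These values do not establish pairing by number on HFD either. There the replicate block called 1420 intervals (627 lower) and 351 loci (188 lower) with 3 members (edgeR adjusted p 0.0392 for Ghr, 0.0287 for Prlr and 0.0342 for Igfals). Without LKO 1 and flox 3, chosen after the data were seen, 1883 intervals (988 lower; 9 of members) and 321 loci (189 lower; 4 members) were called. For HFD loci DESeq2 called 124 (52 lower) and limma-voom 42 lower. Leaving out 1 library gave 304 to 1189 intervals (118 to 613 lower; 0 to 6 of members) and 17 to 192 loci (9 to 116 lower; 0 to 1 member). For the difference between diets the fit without chow libraries numbered 2 called 397 intervals (11 of members) and 42 matched loci (1 member), and leaving out 1 library gave 82 to 370 intervals (0 to 17 of members) and 4 to 33 loci (0 to 1 member). The cause of these shifts was not tested.

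Signs of these log2 values turned. Limma-voom put chow Stat5b 100850395 at 0.039. Without HFD LKO 1 and flox 3, Igf1 87885277 was at -0.13, Cish 107296555 at -0.11 and Cux2 122050253 at -0.11. With gene bodies alone the HFD Bcl6 sum was 0.00026, and without chow libraries numbered 2 the diet difference was 0.0030 for Stat5a and 0.020 for Stat5b. Leaving out 1 library spanned 0 for chow Igfals 24878448 (-0.093 to 0.16) and 24877257 (-0.31 to 0.050), Cux2 122019313 (-0.089 to 0.23) and 122050257 (-0.10 to 0.22), Stat5b 100822289 (-0.16 to 0.017) and the sums of Cux2 (-0.23 to 0.25), Igfals (-0.31 to 0.0063) and Stat5a (-0.14 to 0.026). On HFD it did so for Igf1 87885277 (-0.038 to 0.39), Cish 107296555 (-0.15 to 0.14), Cux2 122050253 (-0.18 to 0.16), Socs2 95416775 (-0.16 to 0.10), Stat5a 100860122 (-0.074 to 0.12) and the sums of Bcl6 (-0.085 to 0.035) and Stat5a (-0.12 to 0.045). For the diet difference it did so for Stat5a (-0.11 to 0.058), Stat5b (-0.13 to 0.061), Ghr (-0.18 to 0.010) and Bcl6 (-0.0056 to 0.35).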
